A study of Homo sapiens with 15 samples.

Results

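The proto-oncogenes MYC and MYB and the MYB paralog MYBL1 differed among groups in 3 ways when ZR-75-1 cells met steroid compounds for 6 h, and all their differences were small. MYB fell with MPA and with DEX, MYC rose with DEX, and MYBL1 was higher with MPA and with PROG than with DEX. Of these calls only that of MYB with MPA held in each of the 12 alternatives tried, and each of the others ended in several. The 3 genes were taken by platform symbol from the 14361 genes named in the table, and each has 1 of its 34878 probe sets. They are probe sets 17072669 for MYC, 17012804 for MYB and 17077826 for MYBL1. MYC and MYBL1 lie on chromosome 8 and MYB on chromosome 6.

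ZR-75-1 is an established human breast cancer line that expresses the estrogen receptor. Its cells, kept in RPMI-1640 with 10% FBS, received 10 nM of MPA (medroxyprogesterone acetate, a synthetic progestin), PROG (progesterone), DHT (dihydrotestosterone, an androgen) or DEX (dexamethasone, a synthetic glucocorticoid), against 0.1% ethanol as vehicle. The full names are the usual reading of these abbreviations. Each of the 5 groups had 3 Affymetrix arrays of total RNA, the labels also call the vehicle cells untreated, and they do not name the solvent of the compounds. All values are from 1 line, at 1 dose and 1 time. Nothing in the labels ties the arrays of a group to different cultures, and p-values reflect the array-to-array spread alone, which could be technical. In such bulk RNA, fewer cells with a transcript and less of it per cell cannot be told apart.

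MYC is a transcription factor that pairs with MAX, binds the E-box CACGTG and raises genes of ribosome production, nucleotide synthesis and growth, while MXD1 and its relatives compete for MAX and repress. MYB drives the growth of immature blood cells, and in estrogen receptor-positive breast cancer its transcription is known to depend on the receptor, which relieves a block to elongation inside the gene. MYBL1, or A-MYB, shares the MYB DNA-binding domain and is best known for its role in male meiosis.

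Levels are the deposited log2 values, and differences are log2 differences of group means, first group minus second, ± the standard error (SE) of a limma fit over all 15 arrays, with n = 3 arrays a group. Calls use a limma adjusted p under 0.05, taken over the 14841 probe sets with a gene symbol. Array medians were 3.69 to 3.73, and arrays of 1 group correlated at r = 0.997 to 0.998 across probe sets. All 3 members lay well above these medians on every array. Of 12 luminal epithelial markers 11 were measured, and all 11 were above the array median on every array, among them ESR1, GATA3, EPCAM and KRT18. Of 6 basal markers 3 were measured and none was above it on every array, with KRT5 at most 3.20 and KRT14 at most 3.15. Of 7 fibroblast markers 2 were measured, LUM at 3.73 to 4.26 and VIM at 3.40 to 4.03. Of 9 blood or endothelial markers 3 were measured, CD14 and VWF below the medians throughout and CD68 at 7.56 to 7.93. By the moderated F test over the 4 comparisons with vehicle, which called 5.13% of probe sets, each member differed among the groups, with adjusted p = 0.0404 for MYC, 0.0181 for MYB and 0.0325 for MYBL1. Leaving out 1 array ended this call for MYC in 11 of 15 cases (adjusted p up to 0.185), for MYBL1 in 9 (up to 0.131) and for MYB in 2, vehicle 1 and vehicle 3 (up to 0.0674).

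**Figure D1:**
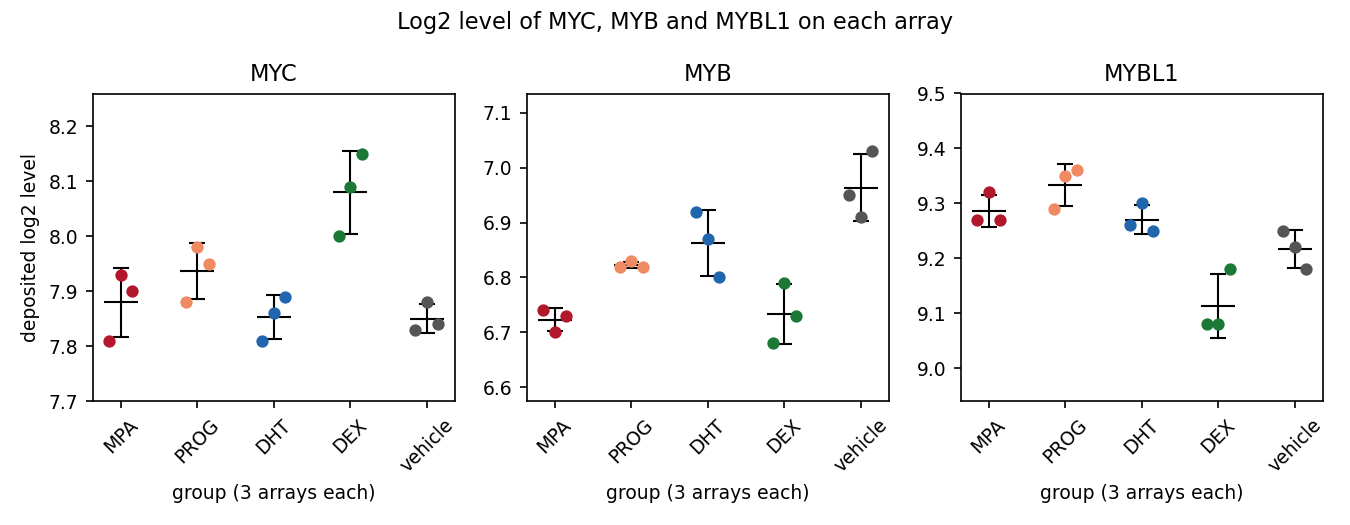
Deposited log2 level of MYC, MYB and MYBL1 (vertical axes, all spanning the same log2 range but not starting at 0) on each of the 3 arrays of the MPA, PROG, DHT, DEX and vehicle groups. Points are arrays and bars are the group mean ± SD. The DEX arrays are highest for MYC and lowest for MYBL1, and vehicle is highest for MYB.

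MYB was called lower with 2 of the 4 compounds, MPA and DEX. Its log2 level was 6.74, 6.70 and 6.73 on the MPA arrays, 6.82, 6.83 and 6.82 with PROG, 6.92, 6.87 and 6.80 with DHT, and 6.68, 6.79 and 6.73 with DEX, against 6.95, 6.91 and 7.03 with vehicle. Of the 12 treated arrays 11 lay below the lowest vehicle array, and DHT 1 was the exception. The MPA, PROG and DEX groups therefore did not overlap vehicle, while DHT did, and the PROG difference was not called. How many of all probe sets separate in this way was not counted. Gaps between groups of 3 arrays, here and below, thus describe the arrays and are no test.

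MYB fell with MPA to 0.847 of the vehicle level (log2 difference -0.24 ± 0.046, 95% interval -0.34 to -0.14, adjusted p = 0.00427). This call held in each of the 12 alternatives tried, with adjusted p between 0.00211 and 0.0473. In this comparison 1.82% of probe sets were called lower and 4.11% higher. Of the 270 probe sets called lower, 181 fell further than MYB, so the change is a modest one among them.

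With DEX, MYB fell to 0.853 of vehicle (-0.23 ± 0.046, interval -0.33 to -0.13, adjusted p = 0.0250), in a comparison where 0.148% of probe sets were called lower and 0.957% higher. Leaving out vehicle 1, vehicle 3, DEX 1 or DEX 3 ended that call, with adjusted p up to 0.113. PROG and DHT gave smaller differences of the same sign that were not called. For PROG it was -0.14 ± 0.046 (interval -0.24 to -0.04, adjusted p = 0.167), where 0.391% of probe sets were called lower and 2.43% higher. For DHT it was -0.10 ± 0.046 (adjusted p = 0.497), where 0.115% were called lower and 0.775% higher.

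Between compounds no MYB difference was called. By group mean the order from low to high was MPA at 6.72 ± 0.021, DEX at 6.73 ± 0.055, PROG at 6.82 ± 0.0058, DHT at 6.86 ± 0.060 and vehicle at 6.96 ± 0.061 (SD, n = 3 each). MPA and DEX overlapped and differed by -0.01, with an interval of -0.11 to 0.09. DEX lay below PROG on all arrays, with PROG minus DEX at 0.09 (interval -0.01 to 0.19, adjusted p = 0.557). MPA arrays lay below all PROG and all DHT arrays, at -0.10 ± 0.046 (interval -0.20 to 0.00, adjusted p = 0.580) against PROG and -0.14 ± 0.046 (interval -0.24 to -0.04, adjusted p = 0.139) against DHT. PROG and DHT overlapped (-0.04, interval -0.14 to 0.06). MPA carries an added methyl and an acetoxy group on the progesterone skeleton, and for MYB these data leave a difference of up to -0.20 between the 2 progestins within the interval. In these comparisons 0.29% of probe sets were called for MPA against PROG, 3.51% for MPA against DHT and 1.71% for PROG against DHT.

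MYC and MYBL1 have no window in the promoter set used here and could not be searched. The stretch just before the MYB start site is shown, since MYB is the only member with a window. It is the 250 bases before the start in RefSeq, GRCh38.p14, chr6:135181058-135181307, plus strand, in lower case throughout because none of the motifs searched was in it.
MYB: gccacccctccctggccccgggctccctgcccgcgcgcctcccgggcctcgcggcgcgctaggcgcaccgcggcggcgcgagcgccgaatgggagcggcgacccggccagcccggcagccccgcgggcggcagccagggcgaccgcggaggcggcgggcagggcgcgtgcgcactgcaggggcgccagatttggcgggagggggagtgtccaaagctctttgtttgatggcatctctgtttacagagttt
The motifs, read on both strands, were the hexamer TGTTCT bound by the androgen, glucocorticoid and progesterone receptors, the full palindromic steroid response element that contains it, the estrogen response element, the E-box CACGTG and a MYB motif. The MYB motif was TAACGG or TAACTG, or else CAACGG or CAACTG. Among 35116 such windows in the table, the hexamer was in 12.4%, the full element in 0.00285%, the estrogen response element in 0.0399%, the E-box in 6.34% and a MYB motif in 21.1%. No match says only that these letters are not in this window.

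MYC rose with DEX and was not called with the other 3 compounds. Its log2 level was 8.0, 8.09 and 8.15 on the DEX arrays, 7.81, 7.93 and 7.90 with MPA, 7.88, 7.98 and 7.95 with PROG, and 7.81, 7.86 and 7.89 with DHT, against 7.83, 7.88 and 7.84 with vehicle. All 3 DEX arrays lay above the other 12. The DEX difference from vehicle was 0.23 ± 0.049, or 1.17-fold (interval 0.12 to 0.34, adjusted p = 0.0397), and 126 of the 142 probe sets called higher with DEX rose further.

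The MYC call with DEX lies close to the threshold. It ended in 5 of 6 cases with 1 array left out, all but the removal of DEX 1 (adjusted p up to 0.177), when all 34878 probe sets were tested (adjusted p = 0.0727), and after quantile normalization (0.20 ± 0.045, adjusted p = 0.0634). The differences from vehicle were 0.03 with MPA (interval -0.08 to 0.14, adjusted p = 0.815), 0.09 with PROG (-0.02 to 0.19, adjusted p = 0.563) and 0.00 with DHT (-0.10 to 0.11, adjusted p = 0.987).

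By group mean the order from high to low was DEX at 8.08 ± 0.075, PROG at 7.94 ± 0.051, MPA at 7.88 ± 0.062, DHT at 7.85 ± 0.040 and vehicle at 7.85 ± 0.026 (SD, n = 3 each). The last 4 groups overlapped or met. MYC was lower with MPA than with DEX by -0.20 ± 0.049 (interval -0.31 to -0.09, adjusted p = 0.0358), where 4.06% of probe sets were called. This call ended without any 1 of MPA 1, MPA 3, DEX 2 and DEX 3 (adjusted p up to 0.154) and when all probe sets were tested (adjusted p = 0.0660). DHT against DEX gave -0.23 ± 0.049 (interval -0.33 to -0.12, adjusted p = 0.0566), not called where 0.654% of probe sets were. PROG against DEX gave -0.14 ± 0.049 (interval -0.25 to -0.04, adjusted p = 0.276), where 1.42% were called.

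MYBL1 was not called against vehicle with any compound. Its log2 level was 9.27, 9.32 and 9.27 on the MPA arrays, 9.29, 9.35 and 9.36 with PROG, 9.26, 9.30 and 9.25 with DHT, and 9.08, 9.08 and 9.18 with DEX, against 9.25, 9.22 and 9.18 with vehicle. The MPA and PROG arrays lay above every vehicle array. The DEX arrays lay below all arrays of the other compounds and met vehicle only at 9.18.

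The called MYBL1 differences were both between a progestin and DEX. Of all probe sets tested, 1.42% were called for PROG against DEX and 4.06% for MPA against DEX. PROG was above DEX by 0.22 ± 0.042, or 1.16-fold (interval 0.13 to 0.31, adjusted p = 0.0137), and MPA above DEX by 0.17 ± 0.042 (interval 0.08 to 0.26, adjusted p = 0.0323). Leaving out PROG 2, PROG 3, DEX 1 or DEX 2 ended the PROG call (adjusted p up to 0.0712), and leaving out any of the 3 MPA arrays, DEX 1 or DEX 2 ended the MPA call (adjusted p up to 0.118). DHT was above DEX by 0.16 ± 0.042 without a call (adjusted p = 0.149). Against vehicle the differences were 0.07 with MPA (interval -0.02 to 0.16, adjusted p = 0.430), 0.12 with PROG (0.03 to 0.21, adjusted p = 0.231), 0.05 with DHT (-0.04 to 0.14, adjusted p = 0.743) and -0.10 with DEX (-0.19 to -0.01, adjusted p = 0.395). The order from high to low was PROG at 9.33 ± 0.038, MPA at 9.29 ± 0.029, DHT at 9.27 ± 0.026, vehicle at 9.22 ± 0.035 and DEX at 9.11 ± 0.058 (SD, n = 3 each). Each of these groups overlapped or met its neighbour in that order.

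**Figure D2:**
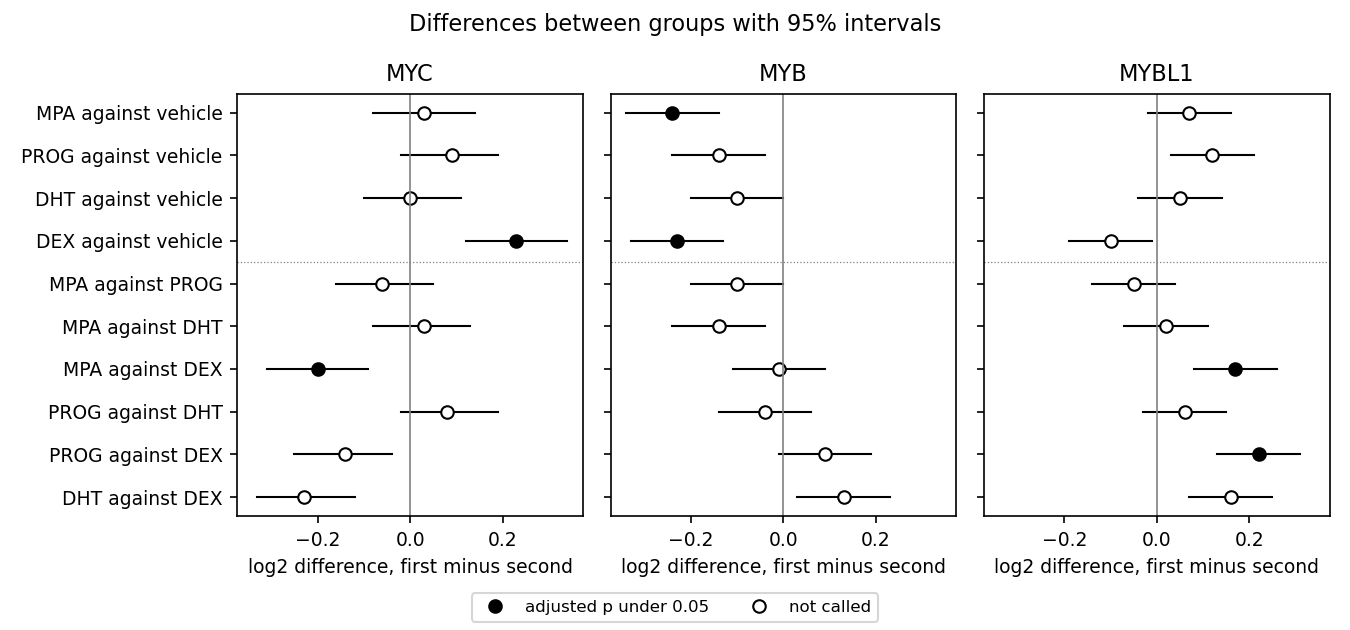
Log2 differences (horizontal axis, first group minus second) of MYC, MYB and MYBL1 in the 4 comparisons with vehicle and the 6 between compounds. Points are differences, lines are 95% intervals, and filled points have a limma adjusted p under 0.05: MYC in 2 comparisons, both with DEX, MYB in 2 comparisons with vehicle, and MYBL1 in 2 comparisons with DEX.

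Among MYC partners, antagonists and paralogs, the antagonist MXD1 stood out. It rose with both progestins and was not called with DHT or DEX. MXD1 had log2 levels of 9.28, 9.32 and 9.38 with MPA, 9.24, 9.23 and 9.21 with PROG, 8.58, 8.59 and 8.64 with DHT, and 8.69, 8.66 and 8.60 with DEX, against 8.56, 8.46 and 8.48 with vehicle. The 6 progestin arrays lay far above the other 9, and all DHT and DEX arrays lay above vehicle by a small margin. The increase was 1.77-fold with MPA (0.83 ± 0.043, adjusted p = 1.62e-08) and 1.65-fold with PROG (0.73 ± 0.043, adjusted p = 1.47e-07), against 0.10 ± 0.043 with DHT (adjusted p = 0.447) and 0.15 ± 0.043 with DEX (adjusted p = 0.165). The differences between compounds were tested directly. MPA exceeded DHT by 0.72 (adjusted p = 1.99e-07) and DEX by 0.68 (adjusted p = 3.29e-07), PROG exceeded DHT by 0.62 (adjusted p = 1.84e-06) and DEX by 0.58 (adjusted p = 5.63e-06), and the progestins differed from each other by 0.10 (adjusted p = 0.544).

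Of the 20 measured of 30 genes in that list, 2 rose with MPA, 1 with PROG, 0 with DHT and 0 with DEX, and none fell. That is 10% of the list with MPA and 5% with PROG, where 4.11% and 2.43% of all probe sets were called higher, so the counts are near the background. The other gene raised by MPA was USP28, a deubiquitinase that stabilises MYC protein (0.21 ± 0.056, adjusted p = 0.0388), a call lost without vehicle 1, vehicle 2, MPA 1 or MPA 3 (adjusted p up to 0.151). The obligate partner MAX gave differences of -0.06 to 0.00 and was not called. The list's median difference was 0.003 with MPA, 0.008 with PROG, 0.017 with DHT and 0.012 with DEX, against medians of -0.003, 0.000, -0.003 and 0.010 over all probe sets tested.

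Some of the growth and ribosome biogenesis genes that MYC is known to raise were lower with MPA than with DEX, a comparison singled out after the counts of all 10 comparisons were seen. Set against DEX directly, 8 of 38 measured genes were lower with MPA, which is 21.1% of the list, and 0 were higher, where 1.57% of all probe sets were called lower and 2.49% higher. The list was also chosen with earlier results of these data known, so these shares are no independent test. The list's median difference was -0.112, against -0.010 over all probe sets tested. Of its 38 genes 4 had a difference above 0, where 44.5% of all probe sets tested did. That count was 4 to 6 with each of the 6 arrays left out and 6 after quantile normalization, alternatives chosen after seeing the data. With PROG set against DEX 6 were above 0 and with DHT against DEX 5, with no gene called in either. Of all probe sets tested, 44.2% and 43.5% were above 0 in these 2 comparisons. The 8 genes, named after their values were seen, are PPAT, the first enzyme of purine synthesis, together with WDR75, NOP2, RRS1, NOP16, MRTO4, NIP7 and RRP12, which act in making ribosomes.

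PPAT had log2 levels of 8.42, 8.65 and 8.51 with MPA against 8.89, 8.79 and 8.92 with DEX (-0.34 ± 0.070, adjusted p = 0.0110). WDR75 had 10.03, 10.14 and 10.12 with MPA against 10.32, 10.42 and 10.38 with DEX (-0.28 ± 0.051, adjusted p = 0.00493). The MPA and DEX groups did not overlap in either gene. NOP2, an rRNA methyltransferase, had 9.02, 8.93 and 8.93 with MPA against 9.21, 9.28 and 9.21 with DEX (-0.27 ± 0.056, adjusted p = 0.0108). The other 5 genes differed by -0.26 to -0.18, with adjusted p of 0.0267 to 0.0445. Leaving out 1 array gave 4 calls without MPA 1, 4 without MPA 2, 6 without MPA 3, 3 without DEX 1, 4 without DEX 2 and 2 without DEX 3. The count was 3 when all 34878 probe sets were tested and 1 when only the 6 arrays compared were fitted. WDR75 kept its call with each of the 6 arrays left out.

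Against vehicle, which both groups share, 3 of the 38 genes fell and 2 rose with MPA, and none was called with PROG, DHT or DEX. With MPA that is 7.89% of the list lower and 5.26% higher, where 1.82% of all probe sets were called lower and 4.11% higher, so the share that rose is near the background. The falls with MPA were PPAT to 0.779 of vehicle (-0.36 ± 0.070, adjusted p = 0.00503), WDR75 (-0.23 ± 0.051, adjusted p = 0.0124) and NOP16 (-0.23 ± 0.058, adjusted p = 0.0271). The 2 genes that rose were E2F2, a cell cycle transcription factor (0.26 ± 0.065, adjusted p = 0.0275), and SRM, spermidine synthase (0.17 ± 0.043, adjusted p = 0.0280), which was outside the naming rule. Only PPAT of these 5 kept its call with each array left out. WDR75 lost it without vehicle 1 or MPA 1 (adjusted p up to 0.0616), NOP16 without vehicle 1, vehicle 2, vehicle 3, MPA 1 or MPA 2 (up to 0.112), E2F2 without vehicle 1, vehicle 3, MPA 2 or MPA 3 (up to 0.123) and SRM without vehicle 1, vehicle 3, MPA 1 or MPA 3 (up to 0.119). The median was -0.033 with MPA, 0.002 with PROG, -0.017 with DHT and 0.057 with DEX. Differences above 0 numbered 10 of 38 with MPA and 32 of 38 with DEX, where 47.9% and 54.1% of all probe sets tested lay above 0. MYC itself is no member of this list.

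**Figure D3:**
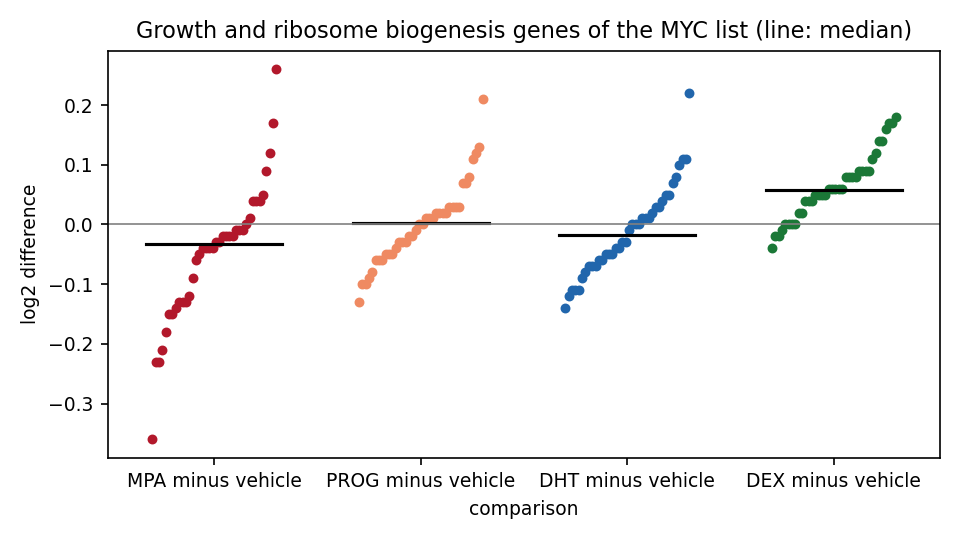
Log2 difference from vehicle (vertical axis) of the 38 measured growth and ribosome biogenesis genes of the MYC list, sorted within each comparison, for MPA, PROG, DHT and DEX. Points are genes and the line is the median, -0.033 with MPA and 0.057 with DEX. The 4 comparisons use the same vehicle arrays.

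The promoters of MXD1 and PPAT are printed for the motifs of the members themselves, MXD1 because it had the largest change among MYC partners and PPAT because it had the largest fall in the growth list. Each is the 250 bases before the start in RefSeq, GRCh38.p14, given 5′ to 3′ along the gene. MXD1 is chr2:69914859-69915108, plus strand, and PPAT is chr4:56435616-56435865, minus strand. Capitals mark a MYB motif in MXD1, and an E-box and 2 MYB motifs in PPAT.
MXD1: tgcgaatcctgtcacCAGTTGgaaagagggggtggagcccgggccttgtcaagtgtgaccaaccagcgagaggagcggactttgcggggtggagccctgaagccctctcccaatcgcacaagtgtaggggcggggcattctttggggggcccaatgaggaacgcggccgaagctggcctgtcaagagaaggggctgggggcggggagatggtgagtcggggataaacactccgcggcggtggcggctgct
PPAT: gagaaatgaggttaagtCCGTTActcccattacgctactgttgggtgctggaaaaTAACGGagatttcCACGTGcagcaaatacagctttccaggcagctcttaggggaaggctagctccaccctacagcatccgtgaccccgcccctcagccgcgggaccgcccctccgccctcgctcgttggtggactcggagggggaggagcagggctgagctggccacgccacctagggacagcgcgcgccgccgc
The E-box of PPAT starts 182 bases before the start site and its MYB motifs start 233 and 195 bases before it, while the MYB motif of MXD1, in reverse orientation, starts 235 bases before. Of 17 list genes besides MYC named for a call against vehicle, 14 have a window in the table. An E-box was in 6 of them, namely CCNB1, DUSP1, KLF6, PPAT, SRM and USP28, and a MYB motif in 2, MXD1 and PPAT. The hexamer TGTTCT was in 1, RBL2, and the full steroid response element and the estrogen response element were each in 0. The 14 genes come from the MYC and MYB lists and were picked for a call, so no enrichment can be read from these counts. Over 15843 protein-coding genes the shares were 9.73% for the E-box, 25.2% for a MYB motif and 12.7% for the hexamer. They were 0.0% for the full steroid response element and 0.0379% for the estrogen response element. These are matches of letters and not measured binding sites.

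Of genes that MYC is known to repress, 9 of 25 were measured. With MPA 4 rose and 0 fell, with PROG 2 rose, with DHT 0 and with DEX 1. The shares of the list called higher were 44.4% with MPA, 22.2% with PROG and 11.1% with DEX, where 4.11%, 2.43% and 0.957% of all probe sets were, and 0.775% with DHT. The list was chosen with earlier results of these data known, so these shares are no independent test. The list's median difference was 0.133 with MPA, 0.070 with PROG, 0.050 with DHT and 0.070 with DEX. KLF6, a Kruppel-like factor, had log2 levels of 9.01, 9.0 and 9.03 with MPA, 8.83, 9.0 and 8.87 with PROG, 8.46, 8.50 and 8.49 with DHT, and 8.66, 8.73 and 8.77 with DEX, against 8.43, 8.44 and 8.58 with vehicle. It rose 1.44-fold with MPA (0.53 ± 0.053, adjusted p = 1.30e-05) and 1.33-fold with PROG (0.42 ± 0.053, adjusted p = 2.52e-04), and with DEX the difference of 0.24 ± 0.053 missed the threshold (adjusted p = 0.0504). NDRG1, a stress-response gene, rose 2.80-fold with MPA (1.48 ± 0.17, adjusted p = 5.76e-05) and 2.43-fold with PROG (1.28 ± 0.17, adjusted p = 4.22e-04), and DUSP1, a MAP kinase phosphatase, rose with MPA (0.49 ± 0.060, adjusted p = 8.78e-05) and with DEX (0.51 ± 0.060, adjusted p = 3.50e-04). CCND1, cyclin D1, which also binds MYB, rose with MPA (0.21 ± 0.054, adjusted p = 0.0376), a call lost without vehicle 1, vehicle 2, MPA 1 or MPA 3 (adjusted p up to 0.150).

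Of 23 measured cofactors and paralogs of MYB, the kinase gene HIPK2, whose product phosphorylates MYB and marks it for degradation, rose with all 4 compounds. Its log2 levels were 9.32, 9.31 and 9.39 with MPA, 9.18, 9.14 and 9.15 with PROG, 9.13, 9.14 and 9.12 with DHT, and 9.06, 9.07 and 9.11 with DEX, against 8.87, 8.83 and 8.96 with vehicle. All 12 treated arrays lay above the 3 vehicle arrays. The increase was 0.45 ± 0.042 with MPA (adjusted p = 5.60e-06), 0.27 ± 0.042 with PROG (adjusted p = 0.00155), 0.24 ± 0.042 with DHT (adjusted p = 0.0119) and 0.19 ± 0.042 with DEX (adjusted p = 0.0413). The DHT call ended without vehicle 2 or DHT 2 (adjusted p up to 0.0612), and the DEX call in 5 of 6 cases, all but the removal of vehicle 3 (adjusted p up to 0.167). MPA exceeded DHT by 0.21 (adjusted p = 0.00958) and DEX by 0.26 (adjusted p = 0.00194), and exceeded PROG by 0.18 without a call (adjusted p = 0.114).

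In the cofactor list 2 genes rose with MPA, HIPK2 and CCND1, and 1 fell, and 1 rose with each of PROG, DHT and DEX, in each case HIPK2. With MPA that is 8.70% of the list higher and 4.35% lower, where 4.11% and 1.82% of all probe sets were, so the counts are near the background. A single gene is 4.35% of the list, where 2.43% of all probe sets were called higher with PROG, 0.775% with DHT and 0.957% with DEX. The fall was in RBL2, a pocket protein of the complex that represses cell cycle genes in resting cells (-0.17 ± 0.046, adjusted p = 0.0462), lost without vehicle 1, vehicle 3, MPA 2 or MPA 3 (adjusted p up to 0.166). The remaining paralog MYBL2, which acts with the MuvB complex on cell cycle genes, differed from vehicle by 0.00 with MPA, 0.00 with PROG, 0.01 with DHT and 0.05 with DEX. The coactivators CREBBP and EP300 and the MuvB subunits LIN9, LIN37, LIN52 and LIN54 were not called with any compound. The list's median lay between -0.010 and 0.017 in the 4 comparisons.

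Of 36 MYB target genes 29 were measured, and few were called. Several of the 29, such as MPO at 2.97 and GFI1 at 2.92, had mean levels under the array medians. For these a missing call says little. With MPA 3 of the 29 fell and 1 rose, with PROG 1 fell, with DHT 2 fell, and with DEX 1 fell and 1 rose. The share of the list called lower was 10.3% with MPA, 3.45% with PROG, 6.90% with DHT and 3.45% with DEX, where 1.82%, 0.391%, 0.115% and 0.148% of all probe sets were. The share called higher was 3.45% with MPA and 3.45% with DEX, where 4.11% and 0.957% of all probe sets were. This list too was chosen with earlier results of these data known, so its shares are no independent test. BCL2, an apoptosis inhibitor and a well-known MYB target, was called lower with all 4 compounds, at 0.624 of vehicle with MPA, 0.746 with PROG, 0.783 with DHT and 0.881 with DEX. Its DEX call (adjusted p = 0.0402) ended without any 1 of the 6 arrays compared (adjusted p up to 0.148). The chemokine receptor CXCR4 was called lower with MPA and DHT, the DHT call (adjusted p = 0.0486) ending without vehicle 1, vehicle 2, vehicle 3, DHT 1 or DHT 2 (adjusted p up to 0.197). The gene that rose with DEX is MYC, described above. KIT, a receptor tyrosine kinase, had log2 levels of 4.33, 4.04 and 3.68 with MPA against 3.46, 3.19 and 3.40 with vehicle, and rose by 0.67 ± 0.14 (adjusted p = 0.0101). The vehicle arrays lie under the array medians for KIT, so the size of its change is uncertain, and without vehicle 2 the adjusted p was 0.0535. CCNB1, a mitotic cyclin, fell with MPA by -0.15 ± 0.039 (adjusted p = 0.0374), a call lost without any 1 of the 6 arrays (adjusted p up to 0.132). Other mitotic targets such as PLK1, AURKA, CDC20 and BIRC5 were not called. The list's median, which includes the targets under the array medians, was between -0.010 and 0.020.

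**Figure D4:**
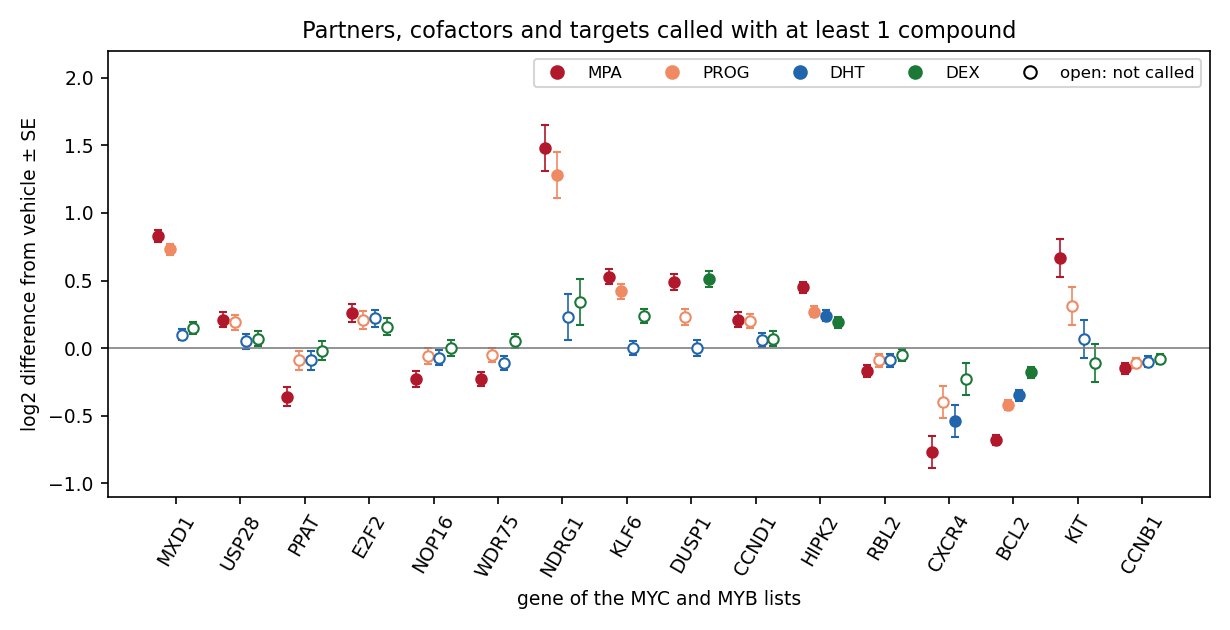
Log2 difference from vehicle ± SE (vertical axis) with MPA, PROG, DHT and DEX for the genes of the MYC and MYB lists called with at least 1 compound and named by the rule. Filled points are called. MXD1, NDRG1 and KLF6 are highest with the 2 progestins, HIPK2 is above 0 and BCL2 below 0 with all 4 compounds.

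The genes whose pattern was most like that of each member were sought among 707 other protein-coding genes that differed among the groups. Likeness was the root mean square difference over the 15 arrays between log2 values centred on each gene's own mean, so 0 would be the same pattern. The members' own root mean square distance from their mean was 0.096 for MYC, 0.096 for MYB and 0.082 for MYBL1. Nearest to MYC were SDC4, a cell surface heparan sulfate proteoglycan (0.052), GALNT7, a glycosyltransferase (0.055), ZBTB26, a zinc finger gene (0.057), FN3KRP (0.064) and IRX6, a homeobox gene (0.065). Nearest to MYB were HIVEP1, a zinc finger gene (0.047), FREM2, an extracellular matrix protein (0.048), SH3RF2 (0.055), ARID3B, a DNA-binding protein (0.062), and RIMKLB (0.064). Nearest to MYBL1 were FBXO5, an inhibitor of the anaphase-promoting complex (0.061), ERBIN, a scaffold protein (0.061), TRIO, a guanine nucleotide exchange factor (0.063), ZNF341 (0.070) and WDR76 (0.072). The MYBL1 set is the least close, since its distances are not far below the spread of MYBL1 itself.

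**Figure D5:**
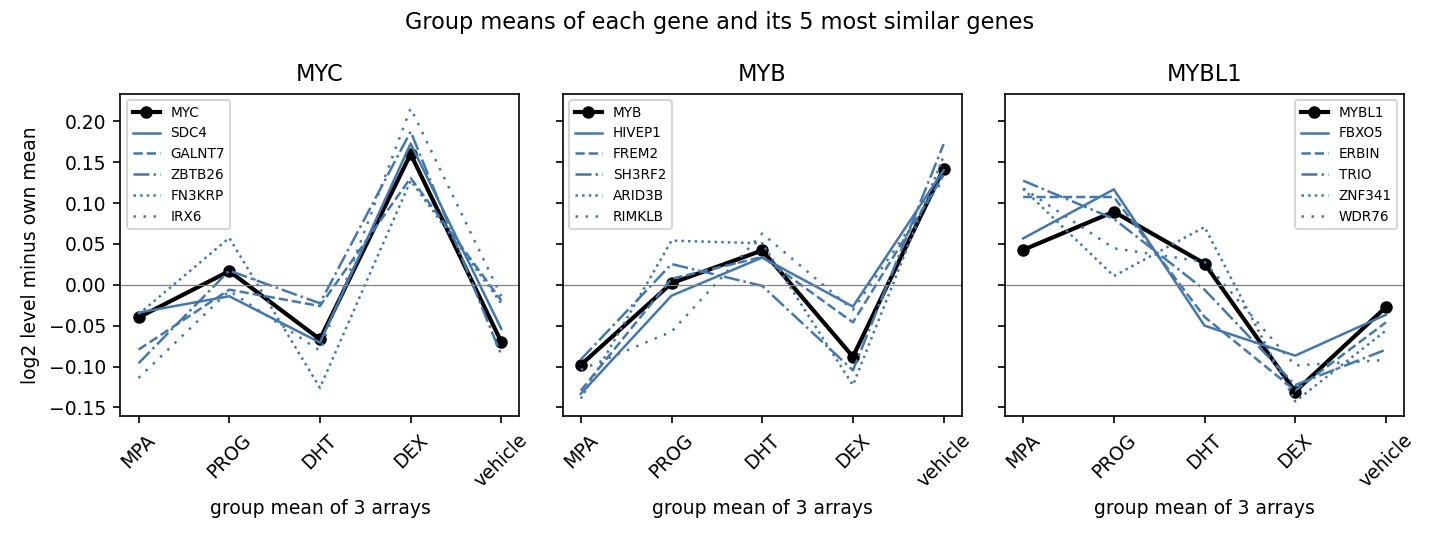
Group means of MYC, MYB and MYBL1 (black) and of the 5 genes most like each (blue), as log2 level minus the mean of the 5 groups (vertical axis), for MPA, PROG, DHT, DEX and vehicle. The genes were chosen for this likeness. MYC and its set peak with DEX, MYB and its set with vehicle, and MYBL1 is lowest with DEX.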

How the data were processed

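Total RNA was amplified, labelled with biotin and hybridised to Affymetrix arrays, per the labels' protocols. The table the authors deposited holds log2 values of 34878 probe sets with 2 decimals. The submitters' processing notes list Partek and RMA as tools. Versions, settings and a genome build were not given in the sources used here. Such normalization removes a change common to most genes and can compress changes of dim probe sets.

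Values were used as deposited. Groups and replicate numbers came from the sample titles. limma 3.58.1 in R 4.3.3 fitted 5 group means over 15 arrays (10 residual and 3.81 prior degrees of freedom) to the 14841 probe sets with 1 platform symbol, of 14361 genes, with 10 contrasts, 2-sided, each contrast adjusted on its own by Benjamini-Hochberg and called under 0.05. The script was tested on simulated data. For a listed gene the probe set with the highest mean was used. Named genes are the members, up to 4 called members of each list for each compound against vehicle by size, the 3 nearest measured protein-coding neighbours on each side, and the 5 most similar genes. Also named, outside this rule, are SRM, further genes of MPA against DEX, and uncalled list members such as MAX, MYBL2, MPO and PLK1. No fixed rule picked these uncalled examples. The members and lists were chosen with earlier results of these data known. Lists share WDR5, AURKA, PIM1, MYBBP1A and CCND1. The alternatives were all probe sets, a filter on dim probe sets, quantile normalization, a replicate block, only the 6 arrays compared, a trended robust prior and each array left out. A RefSeq gene table supplied current symbols and gene order. The number of arrays limits the precision, and no scan date or slide is given in the labels, so batches were not tested.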

Additional observations from a re-analysis of the deposited data

How the results depend on the processing

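Most calls of the members lie near the threshold, and MYB with MPA was the only member call against vehicle that held in every alternative tried. Testing all 34878 probe sets left the differences as they were and ended the calls of MYC for DEX against vehicle (0.23, adjusted p = 0.0727) and MPA against DEX (-0.20, 0.0660), of MYBL1 for MPA against DEX (0.17, 0.0643), and of any group difference for MYC (0.0766) and MYBL1 (0.0699). Quantile normalization gave MYC 0.20 with DEX (0.0634), turned MYC with DHT to -0.01 (0.973) and put MYB for MPA against DEX at 0.00 (0.985). Fitting only the 6 arrays compared ended the calls of MYC (0.23, 0.193) and MYB (-0.23, 0.199) with DEX, of MYC (-0.20, 0.187) and MYBL1 (0.17, 0.175) for MPA against DEX and of MYBL1 for PROG against DEX (0.22, 0.138). MYC for DHT against DEX (-0.23) was called with the brighter probe sets only (0.0328), the replicate block (0.0294) and the trended robust prior (0.0252), which also called MYBL1 for DHT against DEX (0.16, 0.0436).

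Over all probe sets with a symbol, 0 of 30 same-numbered pairs of arrays had deviations correlated over 0.1 (range -0.05 to 0.07). That does not settle pairing for single genes. For MYC, replicate 1 was the lowest array in every group. With a replicate block, the SE for MPA against vehicle went from 0.049 to 0.040 for MYC. It went from 0.046 to 0.049 for MYB and from 0.042 to 0.044 for MYBL1. With the replicate numbers as a block, MYB with DEX (-0.23, adjusted p = 0.0529), MYBL1 for MPA against DEX (0.17, 0.0554) and the group difference of MYBL1 (0.0665) were not called.

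Called probe sets in the 6-array fits numbered 526 with MPA, 255 with PROG, 54 with DHT and 44 with DEX against vehicle, where the 15-array fit gave 880, 419, 132 and 164. Between compounds they numbered 7 for MPA against PROG, 292 for MPA against DHT, 285 for MPA against DEX, 146 for PROG against DHT, 122 for PROG against DEX and 39 for DHT against DEX, where 15 arrays gave 43, 521, 602, 254, 211 and 97. DHT against vehicle had 206 among the brighter probe sets and 222 with the trended robust prior, which gave 72 for MPA against PROG and 166 for DHT against DEX.

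Leaving out 1 array gave 257 to 336 called probe sets for PROG against vehicle, 66 to 132 for DHT, 78 to 123 for DEX, 17 to 38 for MPA against PROG, 168 to 256 for PROG against DHT and 62 to 135 for DHT against DEX. MPA against DHT had 380 to 459, MPA against DEX 422 to 539, PROG against DEX 144 to 169 and MPA against vehicle 674 to 855. Against vehicle, MYC moved between 0.19 and 0.27 with DEX and between -0.02 and 0.02 with DHT, and MYB between -0.26 and -0.20 with DEX. Between compounds, MYC moved between -0.24 and -0.16 for MPA against DEX and between -0.27 and -0.19 for DHT against DEX, which was called in 1 of 6 cases. MYB for MPA against DEX lay between -0.04 and 0.02. MYBL1 lay between 0.16 and 0.21 for MPA against DEX, 0.20 and 0.25 for PROG against DEX and 0.00 and 0.03 for MPA against DHT. The adjusted p of any group difference lay between 0.0301 and 0.185 for MYC, 0.0146 and 0.0674 for MYB and 0.0252 and 0.131 for MYBL1. For other genes called in the main fit and for list counts, 985 of 1257 values kept their side of the threshold or stayed within 1.5 times. Counts that were 0 in both fits are among those 985. Of the gene differences 0 changed sign, while list counts could not be scored as reversed. Causes of these changes were not tested.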

Other observations

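Genes beside the members on their chromosomes were read by the RefSeq gene order, as the nearest 3 measured protein-coding genes on each side. Around MYB, the adjacent genes HBS1L and AHI1 were not called with any compound, with differences from vehicle of 0.03 and -0.08 with MPA. PDE7B, a cyclic AMP phosphodiesterase 2 measured genes beyond MYB, had log2 levels of 4.47, 4.60 and 4.57 with MPA and 4.69, 4.59 and 4.55 with DHT, against 4.93, 5.14 and 4.92 with vehicle. It fell by -0.45 ± 0.077 with MPA (limma adjusted p = 0.00181), a call that held with each of the 6 arrays left out. With DHT it fell by -0.39 ± 0.077 (adjusted p = 0.0323), a call that ended without vehicle 1, vehicle 2 or any of the 3 DHT arrays (adjusted p up to 0.123). With DEX, where MYB was called lower, PDE7B differed by -0.03 (adjusted p = 0.932). SGK1, 2 measured genes before MYB, was called higher with MPA and PROG at levels under the array medians, and the MPA call ended without vehicle 1, MPA 2 or MPA 3 (adjusted p up to 0.0939). TBPL1 and BCLAF1 were not called.

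Around MYC, none of POU5F1B, TRIB1, WASHC5, GSDMC, ADCY8 and EFR3A was called with any compound, and with DEX, where MYC rose, their differences lay between -0.18 and 0.16. Around MYBL1, none of VXN, RRS1, CRH, VCPIP1, MCMDC2 and TCF24 was called against vehicle, where MYBL1 was not called either. For MPA against DEX, where MYBL1 was called higher, RRS1 was called lower (-0.26 ± 0.066, adjusted p = 0.0445). That RRS1 call ended in 5 of 6 cases with 1 array left out. For PROG against DEX none of these neighbours was called. POU5F1B and ADCY8 near MYC, and VXN, CRH, MCMDC2 and TCF24 near MYBL1, had group means under the array medians. Their lack of calls therefore says little.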
